A study of Homo sapiens with 6 samples.

Results

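The 10 genes described here, *IFI44*, *IFI44L*, *IFI35*, *NMI*, *IFI16*, *PML*, *SP100*, *SP110*, *PLSCR1* and *LGALS3BP*, were chosen by name as interferon-stimulated genes, several of whose proteins lie in nuclear bodies. They are 10 of the 19225 symbols listed in the expression table of the study, and 9 of them were tested, since *IFI44L* was under the expression threshold. The study asked how MDM4, best known as an inhibitor of p53, alters transcripts in colon cancer cells without normal p53. RNA sequencing covered 6 libraries of SW480, a colon cancer line whose p53 is mutant, as 3 control libraries and 3 libraries of cells transiently transfected with plasmids encoding MDM4. Per the labels all 6 were plasmid transfected cells grown at 37 °C with 5% CO2, and each was numbered as replicate 1, 2 or 3 of its group. The labels call the second group exercised, which was read as MDM4. They do not say whether the replicates were separate cultures, so that the p-values given here measure only the spread between these libraries, which may be technical. RNA came from whole cultures, in which fewer cells expressing a gene and less RNA per cell cannot be told apart.

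Type I and type III interferons act on receptors at the cell surface, and the kinases bound to these receptors phosphorylate transcription factors. With IRF9 these form a complex that binds the interferon-stimulated response element (ISRE) in the promoters of interferon-stimulated genes. PML nuclear bodies are nuclear assemblies built on the PML protein and on its modification with SUMO. SP100 is a permanent component of them, and both genes are induced by interferon in many cell types. The bodies are known for restricting viral genomes.

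Expression is given as FPKM, in which reads on a gene are scaled to its length and to the reads of its library, which allows levels to be compared between genes. Control replicates 1 to 3 had 44563446, 35522805 and 40086394 reads on genes and MDM4 replicates 1 to 3 had 36274478, 34586839 and 32922970. Control replicates 1 to 3 held *MDM4* itself at 6.35, 7.09 and 5.13 FPKM, and MDM4 replicates 1 to 3 at 188, 185 and 56.3 FPKM. Every MDM4 library was thus above every control library, and MDM4 replicate 3 held the least *MDM4* of its group. Its log2 fold change was 4.33 ± 0.43 (SE, n = 3 per group), with an adjusted p of 0.161 by limma with Benjamini-Hochberg adjustment over all genes, and 4.77e-05 with the replicate number as a block. Replicate 3 also stood apart from replicates 1 and 2 in the other genes of both groups, so that each comparison is also given by replicate number and over replicates 1 and 2 alone.

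The epithelial label was checked against marker genes. *KRT8* was at 1768 FPKM on average in the control libraries, *KRT18* at 1672 FPKM and *EPCAM* at 164 FPKM in these libraries, and 6 of 8 epithelial markers passed the expression threshold. *KRT20* and *CDX1* did not, at 0.369 and 0.0339 FPKM. The leukocyte marker *PTPRC* was at 0.00851 FPKM, and its largest value in any library was 0.0142 FPKM. The fibroblast marker *DCN* was at 0 FPKM in 5 of 6 libraries and the endothelial marker *PECAM1* likewise. Of 14 marker genes of leukocytes, fibroblasts and endothelium, 2 passed the expression threshold, namely *CD14* and *COL1A1*.

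Across the 3 control and 3 MDM4 libraries, all 9 tested genes had a negative log2 fold change, with a median of -0.54 against -0.01 over the 12884 genes tested. The median of the 9 was -0.89 over replicates 1 and 2 alone and -0.36 without MDM4 replicate 1. None of the 9 was a differentially expressed gene (DEG), for which an adjusted p under 0.05 (limma, Benjamini-Hochberg) and an absolute log2 fold change over 1 were required, and 0% of all tested genes were DEGs. The paper itself reports up- and down-regulated DEGs in this comparison. Its methods name no test for them, so its calls and those given here cannot be set side by side. At an unadjusted p under 0.05, 222 genes passed in limma, of which 164 were lower in the MDM4 libraries (1.27% of tested genes), among them *IFI44*, *IFI35*, *SP100*, *PLSCR1* and *LGALS3BP*. With the replicate number as a block, *NMI*, *PML* and *SP110* were under this unadjusted p as well, which made 8 of the 9, against 7.32% of all tested genes that were lower. Voom on the recovered reads called 0 of the 9 as well. For 4 of the 9 genes the highest MDM4 library was below the lowest control library, namely *IFI35*, *NMI*, *SP100* and *LGALS3BP*, against 3.76% of all tested genes. With 3 libraries in each group, 0.1 is the smallest p that the exact two-sided permutation test can give, and these 4 genes reached it.

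**Figure D1:**
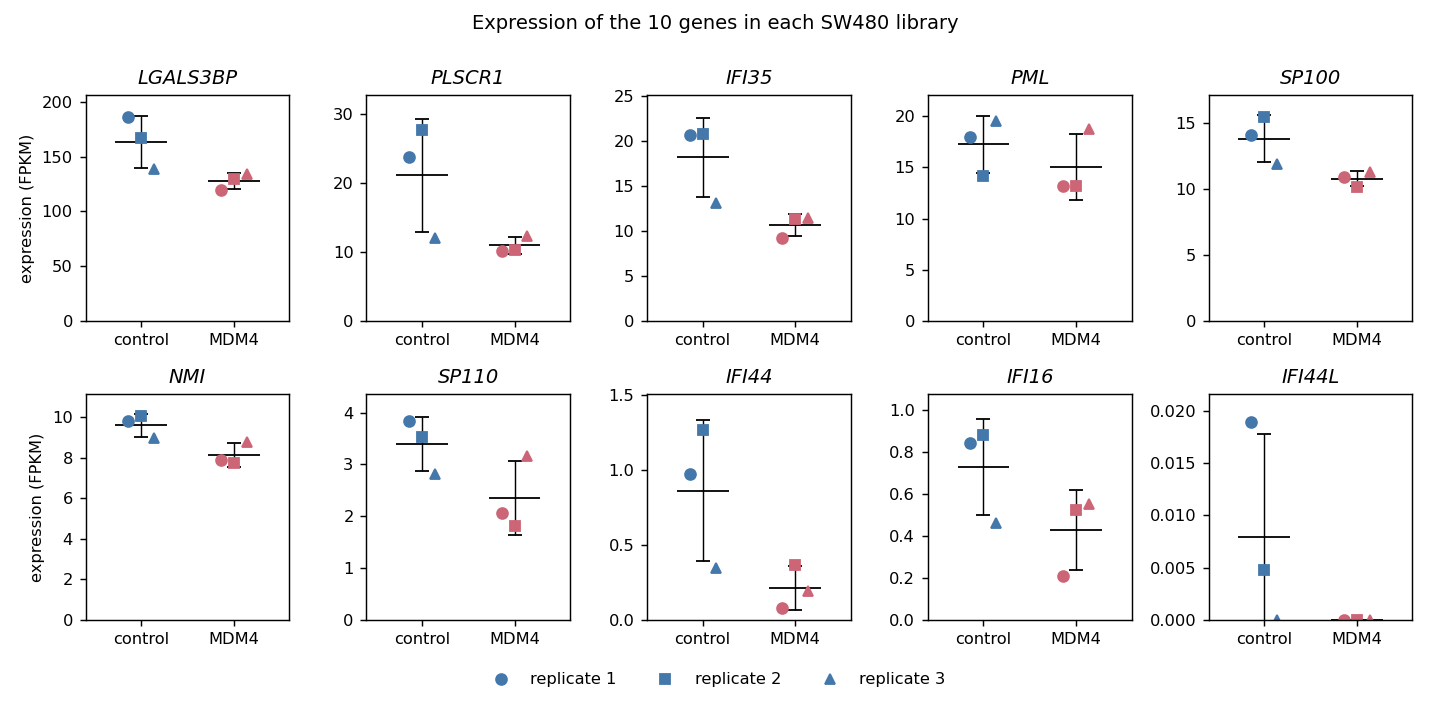
Expression of the 10 genes in FPKM (linear axes from 0) in the 3 control and 3 MDM4 libraries. Each point is a library, its shape gives the replicate number, the long line is the mean and the bar is 1 SD (n = 3 per group, cut at 0 for *IFI44L*). Control replicate 3 lies below control replicates 1 and 2 for 8 of the 9 tested genes, with *PML* as the exception, and *IFI44L* has reads in 2 control libraries alone.

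The order of the levels in the control libraries was set by *LGALS3BP*, at 164 ± 23.8 FPKM (SD, n = 3), which was above 98.3% of all listed genes. *PLSCR1* at 21.1 ± 8.19, *IFI35* at 18.2 ± 4.42, *PML* at 17.2 ± 2.79 and *SP100* at 13.8 ± 1.78 FPKM (SD, n = 3 each) came next, and each of these overlapped its neighbour in the order. *NMI* followed at 9.61 ± 0.575 FPKM and *SP110* at 3.39 ± 0.527 FPKM (SD, n = 3), without overlap. *IFI44* at 0.862 ± 0.471 and *IFI16* at 0.729 ± 0.231 FPKM overlapped each other, and *IFI44L* came last at a mean of 0.00791 FPKM. The set thus ran from a highly abundant transcript of a secreted protein to one at the limit of detection.

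*IFI44* codes for an interferon-induced cytoplasmic protein. On GRCh38 (GENCODE release 29) it is a plus strand gene of chromosome 1 that spans 78649796 to 78664078. Control replicates 1 to 3 held 0.971, 1.27 and 0.346 FPKM of it, from 75, 78 and 24 reads. In MDM4 replicates 1 to 3 it was at 0.0796, 0.367 and 0.193 FPKM, from 5, 22 and 11 reads. Control replicates 1 and 2 stood above all other libraries, while control replicate 3 lay below MDM4 replicate 2, so that the groups overlapped. The log2 fold change was -1.58 ± 0.52 (SE, n = 3 per group), with an adjusted p of 0.9999 (limma, Benjamini-Hochberg) and an exact two-sided permutation p of 0.2. Between same-numbered libraries the difference was -2.58, -1.55 and -0.61 on the log2(FPKM + 0.1) scale, negative in 3 of 3. This scale understates the change of a gene as low as *IFI44*. With a pseudocount of 0.1 its log2 fold change was the most negative of the 9 genes, and with a pseudocount of 1 it was -0.59, behind *PLSCR1* at -0.82 and *IFI35* at -0.70. The 5 reads of MDM4 replicate 1 have a 95% exact Poisson interval of 1.62 to 11.7 reads and the 24 of control replicate 3 one of 15.4 to 35.7, which cover counting error only. Over replicates 1 and 2 alone (2 libraries per group), limma gave a log2 fold change of -2.06 with an adjusted p of 0.0552, and voom on the reads gave -2.62 with an adjusted p of 0.0354 (Benjamini-Hochberg in both).

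*IFI44L*, the paralogue of *IFI44*, lies from 78619922 to 78646145 on the same strand, 3650 bases before *IFI44* with 0 protein-coding genes between them. It held 5 reads in control replicate 1 and 1 read in control replicate 2, with 0.0190 and 0.00476 FPKM. Control replicate 3 and the 3 MDM4 libraries held 0 reads. A count of 0 allows up to 3 reads (a one-sided limit for counting error only, where the two-sided 95% exact Poisson interval ends at 3.69), or 0.0127 FPKM in control replicate 3 and between 0.0140 and 0.0155 FPKM in the MDM4 libraries. No difference in *IFI44L* was therefore detectable at this depth. The counter is not named, so how reads shared between the paralogues were treated is not known, and the values of both are uncertain to that extent.

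The 200 bases before the RefSeq start of each of these genes (GRCh38.p14, plus strand) are shown because both hold the letters of an ISRE (GAAA, any 2 bases, GAAA), which stand in capitals where they match on either strand.
*IFI44*, chr1:78649589-78649788: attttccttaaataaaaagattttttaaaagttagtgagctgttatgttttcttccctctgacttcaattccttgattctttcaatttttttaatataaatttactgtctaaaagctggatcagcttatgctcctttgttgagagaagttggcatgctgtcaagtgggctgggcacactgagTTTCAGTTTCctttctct
*IFI44L*, chr1:78620248-78620447: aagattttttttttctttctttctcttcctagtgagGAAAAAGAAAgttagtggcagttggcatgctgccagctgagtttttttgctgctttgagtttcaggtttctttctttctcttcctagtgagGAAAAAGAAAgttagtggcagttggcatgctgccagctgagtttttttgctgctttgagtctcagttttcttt
In *IFI44* the match lay on the minus strand from -18 to -9 from the start. In *IFI44L* a stretch of 85 bases occurred again 91 bases further on, and each copy carried a match, from -164 to -155 and from -73 to -64. The longest run shared by both windows was agttggcatgctg, of 13 bases, which lies outside the matches. The gene with this repeated ISRE was the one with 6 reads in all 6 libraries together.

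The study measured *IFI44* by qPCR as well, and its primers are shown because they tell the paralogues apart where the counting may not. Bases that match exon 7 are in capitals.
Forward: agttggtaaacgctgGTGTGG
Reverse: ggacttcctctagCTTGGACCT
The forward primer joined exon 6 (chromosome 1, 78659469 to 78659483) to exon 7 (78660554 to 78660559), and the reverse primer joined exon 7 (78660646 to 78660654) to exon 8 (78662704 to 78662716), in a GENCODE transcript of 1687 bases on GRCh38. The product was 129 bases long. Of the 9 GENCODE transcripts of *IFI44*, the forward primer matched 3 in full and the reverse primer 2, whereas the FPKM value is per gene. Against the 10 transcripts of *IFI44L* the forward primer had at least 7 mismatches and the reverse primer at least 9. By qPCR the paper reports lower *IFI44* in colon cancer cells overexpressing MDM4, in SW480 and in a further line. The qPCR values were not analysed here.

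*IFI35* and *NMI* code for proteins that bind each other and are induced by interferon. *IFI35* was at 20.7, 20.8 and 13.1 FPKM in the control libraries, in the order of replicates 1 to 3, and at 9.21, 11.3 and 11.5 FPKM in MDM4 replicates 1 to 3. Every MDM4 library was below every control library, though control replicate 3 and MDM4 replicate 3 were close. Its log2 fold change was -0.74 ± 0.19 (SE, n = 3 per group; adjusted p = 0.9999, limma with Benjamini-Hochberg), and by replicate number the differences were -1.16, -0.88 and -0.19. *IFI35* was a DEG over replicates 1 and 2 alone, with a log2 fold change of -1.02 and an adjusted p of 6.22e-04 (limma, Benjamini-Hochberg).

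*NMI* was at 9.81, 10.1 and 8.96 FPKM in the control and at 7.87, 7.73 and 8.80 FPKM in the MDM4 libraries. The groups did not overlap, but the lowest control library, at 8.96 FPKM, and the highest MDM4 library, at 8.80 FPKM, were both replicate 3. Its log2 fold change was -0.24 ± 0.11 (SE, n = 3 per group), with an adjusted p of 0.9999 in all libraries and 0.325 over replicates 1 and 2 (limma, Benjamini-Hochberg). The difference between the partners was therefore one of size, with *IFI35* more than *NMI* in each of the 3 same-numbered pairs, and this was not tested. *MYC*, whose protein NMI binds, was at 175 ± 50.4 FPKM in the control and 177 ± 55.3 FPKM in the MDM4 libraries (SD, n = 3 each).

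The 200 bases before the starts of this pair are shown because *IFI35* holds the letters of a gamma-activated site (GAS, TTCNNNGAA) and *NMI* those of an ISRE, again in capitals. *IFI35* is on the plus strand and *NMI* on the minus strand of GRCh38.p14.
*IFI35*, chr17:43006584-43006783: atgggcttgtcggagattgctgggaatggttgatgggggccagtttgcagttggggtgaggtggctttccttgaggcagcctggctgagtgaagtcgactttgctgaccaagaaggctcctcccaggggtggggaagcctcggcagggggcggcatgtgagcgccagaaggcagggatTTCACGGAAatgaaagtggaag
*NMI*, chr2:151289669-151289868: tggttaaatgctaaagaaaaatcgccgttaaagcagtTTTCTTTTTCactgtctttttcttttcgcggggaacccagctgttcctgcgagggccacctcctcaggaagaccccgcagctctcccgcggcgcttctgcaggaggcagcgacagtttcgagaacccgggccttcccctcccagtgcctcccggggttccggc
The match in *IFI35* lay from -22 to -14 and the ISRE letters in *NMI* from -163 to -154.

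*PLSCR1* codes for a phospholipid scramblase of the plasma membrane that is also an interferon-induced antiviral protein. Control replicates 1 to 3 held 23.8, 27.6 and 11.9 FPKM of it, from 2351, 2178 and 1060 reads. In MDM4 replicates 1 to 3 it was at 10.1, 10.3 and 12.3 FPKM, from 813, 790 and 900 reads. Control replicates 1 and 2 were high, and the other 4 libraries lay together between 10.1 and 12.3 FPKM, with MDM4 replicate 3 above control replicate 3. The log2 fold change over all libraries was -0.87 ± 0.29 (SE, n = 3 per group), with an adjusted p of 0.9999 (limma, Benjamini-Hochberg) and an exact two-sided permutation p of 0.2. By replicate number it was -1.23, -1.42 and 0.05. *PLSCR1* was a DEG over replicates 1 and 2 alone, with a log2 fold change of -1.32 and an adjusted p of 2.69e-05, and without control replicate 3 it was one as well, at -1.23 and 0.0172 (limma, Benjamini-Hochberg). It was the 1 DEG of the 9 without control replicate 3, against 0.116% of all tested genes that were lower DEGs there. *IFI35* had an adjusted p of 0.0482 in that fit, at a log2 fold change of -0.96 (limma, Benjamini-Hochberg). *PLSCR3*, the only other scramblase of its list above the expression threshold, was at 22.1 ± 2.31 and 20.5 ± 1.98 FPKM in control and MDM4 libraries (SD, n = 3 each).

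*LGALS3BP* codes for a secreted glycoprotein that binds galectin-3. Its values were 186, 167 and 139 FPKM in the control libraries and 119, 130 and 134 FPKM in the MDM4 libraries, each in the order of replicates 1 to 3. The groups did not overlap, and as for *NMI* the closest libraries were those of replicate 3. At 9819 to 18831 reads per library it was the most deeply measured of the 10 genes. The log2 fold change was -0.35 ± 0.11 (SE, n = 3 per group; adjusted p = 0.9999, limma with Benjamini-Hochberg), with differences of -0.64, -0.36 and -0.05 by replicate number. Over replicates 1 and 2 alone it fell by 0.50 on the log2 scale with an adjusted p of 0.00698 (limma, Benjamini-Hochberg), which is short of the fold threshold for a DEG. Of the 6 galectin genes tested, *LGALS9* alone passed over replicates 1 and 2, where it was at 2.93 and 2.81 FPKM in the control and 0.751 and 1.05 FPKM in the MDM4 libraries (log2 fold change -1.59, adjusted p = 0.00199, limma with Benjamini-Hochberg). *LGALS3*, the binding partner, was at 123 ± 6.52 FPKM in the control and 110 ± 7.78 FPKM in the MDM4 libraries (SD, n = 3 each).

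Both genes hold ISRE letters on the strand of the gene, shown here in the 200 bases before the start. Both lie on the minus strand of GRCh38.p14.
*PLSCR1*, chr3:146544608-146544807: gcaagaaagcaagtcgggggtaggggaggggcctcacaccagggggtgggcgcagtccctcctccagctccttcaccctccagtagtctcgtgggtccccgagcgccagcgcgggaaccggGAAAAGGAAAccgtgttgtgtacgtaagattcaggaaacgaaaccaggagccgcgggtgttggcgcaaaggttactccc
*LGALS3BP*, chr17:78979924-78980123: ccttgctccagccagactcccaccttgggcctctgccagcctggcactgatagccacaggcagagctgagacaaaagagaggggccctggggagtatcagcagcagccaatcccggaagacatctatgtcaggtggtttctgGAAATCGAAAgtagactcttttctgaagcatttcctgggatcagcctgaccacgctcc
The match lay from -79 to -70 in *PLSCR1* and from -58 to -49 in *LGALS3BP*.

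*PML* and *SP100* code for the permanent components of PML nuclear bodies. *PML* was at 18.0, 14.2 and 19.6 FPKM in the control and at 13.2, 13.2 and 18.7 FPKM in the MDM4 libraries. The groups overlapped, and replicate 3 was the highest library of both. Its log2 fold change was -0.20 ± 0.18 (SE, n = 3 per group), with an adjusted p of 0.9999 in all libraries and 0.578 over replicates 1 and 2 (limma, Benjamini-Hochberg). Leaving out any library but control replicate 1 moved this small value by over 1.5 times, from -0.37 without MDM4 replicate 3 and -0.34 without control replicate 2 to -0.12 without MDM4 replicate 1 or 2 and -0.11 without control replicate 3. *SP100* was at 14.05, 15.4 and 11.9 FPKM in the control and at 10.9, 10.1 and 11.2 FPKM in the MDM4 libraries. In contrast, every MDM4 library was below every control library. Here the log2 fold change was -0.35 ± 0.12 (SE, n = 3 per group), with an adjusted p of 0.9999 in all libraries and 0.0753 over replicates 1 and 2 (limma, Benjamini-Hochberg). Both genes have many transcripts, 22 and 19 in GENCODE release 29, which a value per gene does not separate.

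*SP110*, a member of the same Speckled protein family that is found in nuclear bodies of leukocytes, was at 3.84, 3.53 and 2.81 FPKM in the control and at 2.05, 1.82 and 3.16 FPKM in the MDM4 libraries. MDM4 replicate 3 lay above control replicate 3, so that the groups overlapped. Limma gave a log2 fold change of -0.54 ± 0.24 (SE, n = 3 per group; adjusted p = 0.9999, limma with Benjamini-Hochberg), and over replicates 1 and 2 alone *SP110* fell by 0.89 on the log2 scale with an adjusted p of 0.0199 in the same test. *SP140L*, a further member of the family, was at 7.28 ± 0.487 and 7.27 ± 0.172 FPKM in control and MDM4 libraries (SD, n = 3 each). *SP140* and *AIRE* were under the expression threshold, at 0.0598 and 0.0104 FPKM in the control libraries.

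*IFI16* codes for a nuclear DNA sensor of the HIN-200 family. It was at 0.842, 0.882 and 0.464 FPKM in the control and at 0.211, 0.527 and 0.553 FPKM in the MDM4 libraries, from 21 to 103 reads. Control replicates 1 and 2 were the highest, and control replicate 3 lay below MDM4 replicates 2 and 3. Its log2 fold change was -0.68 ± 0.39 (SE, n = 3 per group), with an adjusted p of 0.9999 in all libraries and 0.336 over replicates 1 and 2, where the log2 fold change was -1.12 (limma, Benjamini-Hochberg). It was -0.33 without MDM4 replicate 1, the lowest library, and -0.27 with a pseudocount of 1. *AIM2* and *PYHIN1* of the same family were at 0 in every library and *MNDA* was at 0.0268 FPKM in the control. Downstream in DNA sensing, the adaptor *TMEM173* (STING) was at 10.8 ± 1.0 and 9.45 ± 1.64 FPKM in control and MDM4 libraries (SD, n = 3 each), and *TBK1* and *IRF3* did not pass either.

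The partners of the nuclear body genes were compared from lists of the bodies and of SUMO conjugation. Of 17 tested genes whose proteins visit PML nuclear bodies, 0 passed in any direction over replicates 1 and 2 (limma, adjusted p under 0.05), and their median log2 fold change over all libraries was 0.05. *DAXX*, a histone chaperone recruited by SUMO-modified PML, was at 31.8 ± 2.04 FPKM in the control and 31.9 ± 1.36 FPKM in the MDM4 libraries (SD, n = 3 each). *H3F3A*, the histone H3.3 gene, was at 170 ± 16.1 and 161 ± 8.59 FPKM (SD, n = 3 each). *USP7*, which codes for a deubiquitinase, was at 44.6 ± 2.71 and 46.2 ± 3.20 FPKM (SD, n = 3 each). Of 18 tested genes of SUMO conjugation and removal, 0 passed as well, and the most abundant, *SUMO2*, was at 283 ± 7.84 and 286 ± 8.20 FPKM (SD, n = 3 each). Over the same 4 libraries 66 of all 12884 tested genes passed with a lower and 3 with a higher level, so that a count of 0 in lists of this size is near the background. At an unadjusted p under 0.05 over all libraries 0 genes of either list and 222 of all tested genes passed in limma.

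By replicate number, MDM4 was lower than control in all 3 same-numbered pairs for 6 of the 9 genes, *IFI44*, *IFI35*, *NMI*, *PML*, *SP100* and *LGALS3BP*, against 18.6% of all tested genes. The median difference of the 9 genes was -0.87, -0.65 and -0.05 in replicates 1 to 3, beside -0.02, 0.0016 and -0.0043 for all tested genes. In replicates 1 and 2 each of the 9 differences was negative, and in replicate 3 *IFI16*, *SP110* and *PLSCR1* were above 0, at 0.21, 0.16 and 0.05. Over replicates 1 and 2 alone, 4 of the 9 passed at an adjusted p under 0.05 in limma with a lower level (*IFI35*, *SP110*, *PLSCR1* and *LGALS3BP*), against 0.512% of tested genes. *IFI35* and *PLSCR1* were DEGs there, against 0.272% of tested genes that were lower DEGs. Voom on the reads of the same 4 libraries, which was added once the data had been seen, called *IFI44*, *IFI35* and *PLSCR1*, against 0.279% of tested genes.

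**Figure D2:**
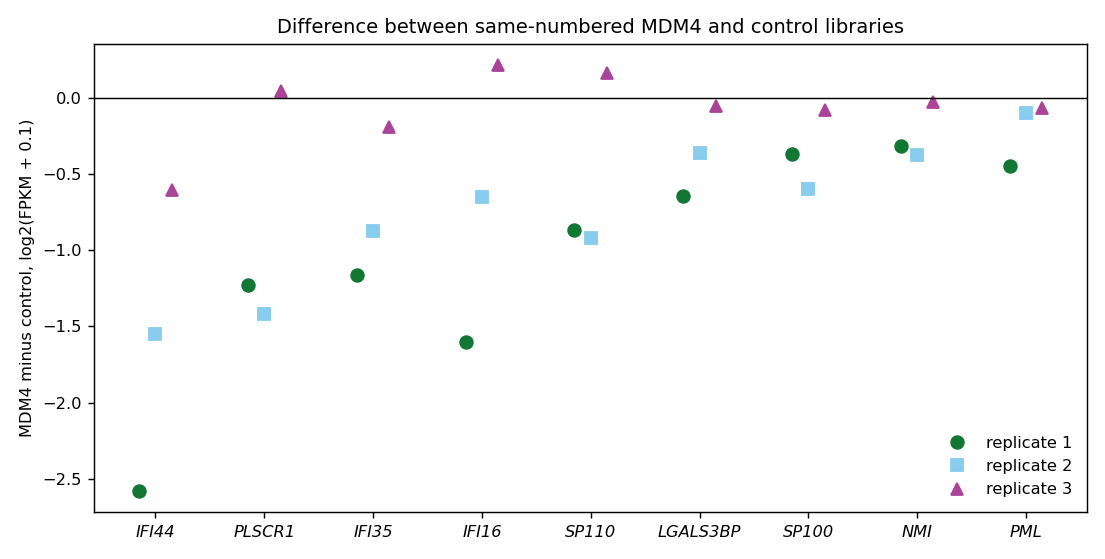
Difference between the MDM4 and the control library of the same number on the log2(FPKM + 0.1) scale for the 9 tested genes, ordered by their log2 fold change over all libraries, with 1 point per pair of libraries. Replicate 3 lies between -0.61 and 0.21, and replicates 1 and 2 lie below 0 for every gene.

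Replicate 3 was then compared with replicates 1 and 2 within each group. Control replicate 3 was below the mean of control replicates 1 and 2 on the log2 scale for 8 of the 9 genes, by 1.44 for *IFI44* and 1.10 for *PLSCR1*, whereas *PML* was above it by 0.29. The median of the 9 was -0.38 beside 0.09 for all tested genes, of which 37.6% were lower in control replicate 3. MDM4 replicate 3 was above the mean of MDM4 replicates 1 and 2 on the same scale for 9 of the 9 genes, by 0.02 for *IFI44* and up to 0.68 for *SP110*, against 62.9% of all tested genes. Here the median of the 9 was 0.17 beside 0.10 for all tested genes, and *IFI44* lay below the latter while *SP100* at 0.098 and *LGALS3BP* at 0.106 were close to it. In FPKM, *IFI44* in MDM4 replicate 3 was 0.863 times the mean of MDM4 replicates 1 and 2, so that its sign depends on the scale. MDM4 replicate 3 was also the library with less *MDM4*, and the part of that, or of any batch that the replicate number may mark, in the values of replicate 3 was not tested.

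**Figure D3:**
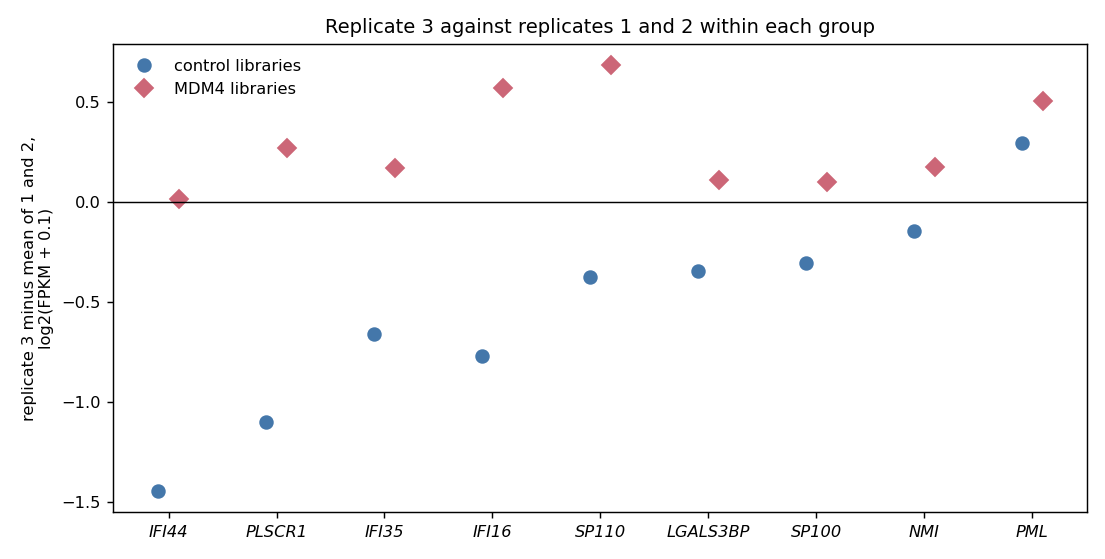
Replicate 3 minus the mean of replicates 1 and 2 within the control and within the MDM4 libraries, on the log2(FPKM + 0.1) scale, for the 9 tested genes. The control points lie below 0 except for *PML* at 0.29, and the MDM4 points lie between 0.02 and 0.68.

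The difference between MDM4 and control in replicate 3 was compared with that in replicates 1 and 2 by a product term of group and replicate 3 in limma. The replicate 3 side of this term is 1 control and 1 MDM4 library, its error comes only from the spread between replicates 1 and 2, and an effect of MDM4 cannot be told apart from a deviation of a single library. The median term was 0.83 over the 9 genes, 0.94 over the 46 other interferon-stimulated genes tested and 0.0092 over all tested genes. Larger terms than that of *PLSCR1* lay outside the set, with *IFI6* at 3.25, *MX1* at 2.87 and *IRF9* at 2.11. *PLSCR1* was the 1 gene of the 9 to pass, with a value 1.37 ± 0.18 (SE) higher in replicate 3 on the log2 scale and an adjusted p of 0.00543 (Benjamini-Hochberg), against 0.186% of tested genes that passed in that direction. For *IFI35* the term was 0.83 ± 0.19 (SE) with an adjusted p of 0.306, for *SP110* 1.06 ± 0.26 with 0.447 and for *IFI44* 1.46 ± 0.75 with 0.9998 (limma, Benjamini-Hochberg). *MDM4* had a term of -1.35 and an adjusted p of 0.00166 in the same fit. Both calls were lost without a filter on low values, where the adjusted p was 0.496 for *PLSCR1* and 0.466 for *MDM4*, and without a trend in the variance, where it was 0.252 and 0.198 (limma, Benjamini-Hochberg).

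The genes most like *IFI44* over the 6 libraries were found by the root mean square difference of log2(FPKM + 0.1) values, each gene centred on its own mean. *CMPK2*, an interferon-induced mitochondrial nucleotide kinase, was nearest at 0.424, followed by *REC8* at 0.426, *IRF9* at 0.431, *OAS1* at 0.437 and *OAS3* at 0.438, where the median over all tested genes was 1.03. *CMPK2* was at 1.74, 1.71 and 0.594 FPKM in the control libraries and at 0.334, 0.472 and 0.695 FPKM in the MDM4 libraries. *REC8*, a meiotic cohesin subunit that is on none of the interferon lists used here, was at 2.29, 2.24 and 0.828 FPKM in the control and at 0.494, 1.06 and 1.11 FPKM in the MDM4 libraries. Like *IFI44*, all 5 were highest in control replicates 1 and 2 and lowest in MDM4 replicate 1. Among the 9 genes themselves, *NMI* and *SP100* were closest at 0.088 and *IFI35* and *PLSCR1* differed by 0.189, while *IFI44* and *PML* were farthest apart at 1.02. Of the other 8, *PLSCR1* at 0.549, *IFI16* at 0.551 and *IFI35* at 0.595 were nearest to *IFI44*.

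Of 46 other interferon-stimulated genes tested, 43 had a negative log2 fold change over all libraries, with a median of -0.64, and 0 were DEGs. Over replicates 1 and 2 alone, 29 of the 46 passed with a lower level and 21 were DEGs (limma, adjusted p under 0.05). Their median difference was -0.91, -0.95 and -0.0047 in replicates 1 to 3. *IFI6* had the most negative value over replicates 1 and 2, a log2 fold change of -3.37, from 162 and 170 FPKM in the control to 15.2 and 16.7 FPKM in the MDM4 libraries. *XAF1*, a gene of apoptosis, followed at -3.35, *MX1*, a GTPase that blocks viruses, at -2.97 and *IFIT2* at -2.67. None of the 9 tested genes reached these values in limma, where *IFI44* at -2.06 came nearest. The most abundant gene of the list, *B2M*, which codes for the light chain of MHC class I molecules, was at 432 ± 27.97 FPKM in the control and 381 ± 21.3 FPKM in the MDM4 libraries (SD, n = 3 each) and did not pass.

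Among genes of interferon receptors and signalling, *IRF9*, *IRF7* and *USP18*, which are themselves induced by interferon, passed over replicates 1 and 2. *IRF9* was at 19.6, 17.2 and 6.98 FPKM in the control and at 3.80, 4.76 and 7.12 FPKM in the MDM4 libraries, with high values in control replicates 1 and 2 alone, as for *PLSCR1*. Over replicates 1 and 2 it fell by 2.08 on the log2 scale with an adjusted p of 3.88e-06 (limma, Benjamini-Hochberg). The receptor genes *IFNGR1* and *IFNGR2* did not pass. *IFNGR1* was at 19.1 ± 0.494 and 19.2 ± 0.993 FPKM in control and MDM4 libraries (SD, n = 3 each). *IFNGR2* was at 22.4 ± 0.541 and 19.4 ± 0.934 FPKM (SD, n = 3 each), with every MDM4 library below every control library and a log2 fold change of -0.21. The kinase gene *JAK1* was at 23.9 ± 2.29 and 24.7 ± 2.88 FPKM (SD, n = 3 each).

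**Figure D4:**
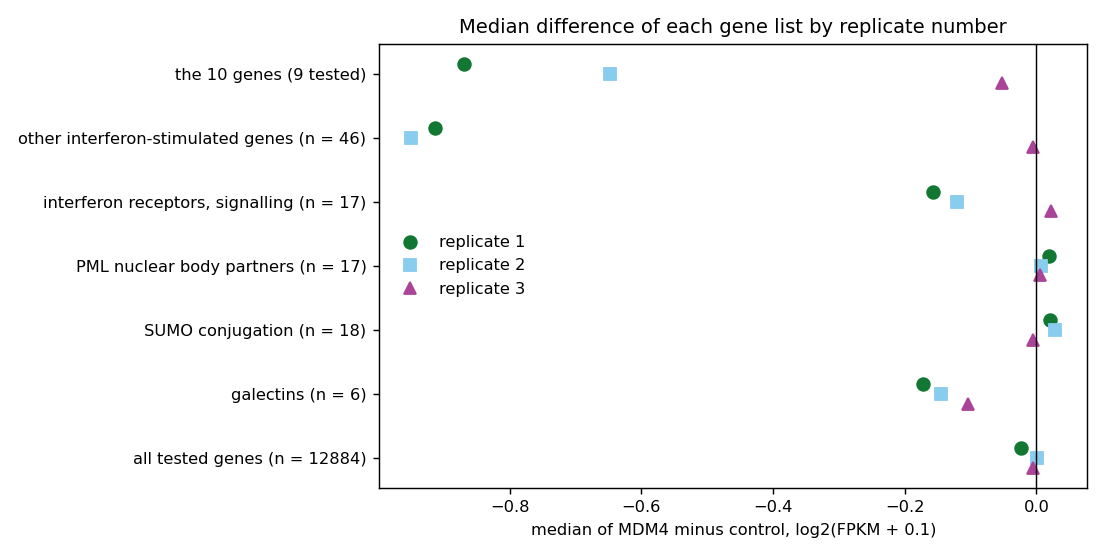
Median difference between the MDM4 and the control library of the same number, on the log2(FPKM + 0.1) scale, for the 9 tested genes, 5 other gene lists and all 12884 tested genes, with 1 point per replicate number. The 9 genes (-0.87, -0.65 and -0.05) and the 46 other interferon-stimulated genes (-0.91, -0.95 and -0.0047) lie apart from 0 in replicates 1 and 2 and close to 0 in replicate 3, and the PML nuclear body partners lie close to 0 in each.

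The nearest tested genes on either side of each of the 10 on its chromosome were 17 genes outside the set, 10 of them within 150 kb. Their log2 fold changes over all libraries ran from -0.33 to 0.27, and 0 of the 17 passed at an adjusted p under 0.05 (limma) over replicates 1 and 2. *VAT1*, which lies 149 bases beyond *IFI35*, was at 99.2 ± 12.4 FPKM in the control and 96.5 ± 7.81 FPKM in the MDM4 libraries (SD, n = 3 each). *SP140L*, named above, lies 12210 bases before *SP100*. *STOML1*, 51 bases from *PML*, was at 3.19 ± 0.265 and 2.90 ± 0.708 FPKM (SD, n = 3 each).

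Taking the RefSeq promoter windows of GRCh38.p14, which run from 250 bases before to 50 bases after a start, 9 of the 10 genes had an entry. The ISRE letters, searched on both strands, were present for 5 of the 9, *IFI44*, *IFI44L*, *NMI*, *PLSCR1* and *LGALS3BP*, and in 3.57% of all 35116 windows (4.38% of genes). Of 38 other interferon-stimulated genes with a window, 28 held them. The GAS letters TTCNNNGAA, searched likewise, were present for 4 of the 9, *IFI35*, *NMI*, *SP110* and *PLSCR1*, and in 7.66% of windows (9.38% of genes), and no GAS match overlapped an ISRE match. The 5 genes with ISRE letters included *IFI44* at a log2 fold change of -1.58 and *NMI* at -0.24, and *IFI35*, a DEG over replicates 1 and 2, had none in its window. A match of letters is a description of sequence and no measure of binding.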

How the data were processed

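The authors deposited FPKM values for 6 SW480 libraries made from oligo(dT)-selected mRNA (Illumina HiSeq2000). The aligner, counter, build and annotation are not given in the sources used here. Columns carry a letter and a digit, read as group and replicate number. Of 19225 symbols, 2036 were 0 in every library. Each FPKM value was taken as a whole number of reads times a step set by gene length and depth. For each gene the smallest length that made the reads of every library whole was used. Such a length was found for 17189 of 17189 genes above 0 (100%), with each value within 0.01 of a whole read. That closeness follows from the way the length was chosen, and a factor common to all reads of a gene would be lost.

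Values of log2(FPKM + 0.1) entered limma 3.58.1 under R 4.3.3 (lmFit, then eBayes using a trend). The 12884 genes averaging 0.5 FPKM or more were tested, with no block and with Benjamini-Hochberg adjustment over all of them. Single values were compared with exact permutation tests in scipy 1.17.1. The fits and the recovery were tested on simulated data. Voom used the recovered reads. Alternatives were the replicate number as a block, other pseudocounts, filters and scalings, each library left out, and replicates 1 and 2 alone. Voom over replicates 1 and 2 was added after the data were seen.

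The 10 genes, the lists and the tests were chosen with earlier results of these data known. Named are *MDM4*, the 10 genes, genes of each list that passed over replicates 1 and 2 (at most 8) or had the highest FPKM (at most 4), the 5 genes most like *IFI44*, and the nearest tested neighbours; marker and other genes named besides were chosen after their values were seen. Some genes that this rule names are not reported here.

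Deviations from the group means correlated across genes at 0.458, 0.451 and 0.783 between same-numbered libraries, and at 0.462 and 0.439 between replicates 1 and 2 of different groups. These values set replicate 3 apart in both groups but do not show that replicates 1 and 2 are paired, since these were as close across as within numbers. Deviations from a group mean cancel out within the group, so a shared deviation of replicate 3 alone raises the correlations between replicates 1 and 2. The pairing by number was therefore an assumption taken from the labels. Gene positions and primer matches came from GENCODE release 29 on GRCh38, promoter windows from RefSeq on GRCh38.p14. Versions were Python 3.11.15, numpy 2.4.6, pandas 2.3.3 and matplotlib 3.10.9.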

Additional observations from a re-analysis of the deposited data

Results flagged for a closer look

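For *PLSCR1* the difference between MDM4 and control in replicate 3 was 1.37 above that in replicates 1 and 2 on the log2 scale (the product term of limma, adjusted p = 0.00543 with Benjamini-Hochberg adjustment over all tested genes). The adjusted p was 0.496 with no filter on low values and 0.252 without trend in the same test. *PLSCR1* was lower in the MDM4 library in 2 of 3 same-numbered pairs. A positive term was not particular to *PLSCR1*. Its median was 0.94 over the 46 other interferon-stimulated genes tested, and *IFI6* among them was at 3.25. The term rests on 1 pair of libraries in replicate 3, with its error taken from replicates 1 and 2, and a deviation of 1 library cannot be told apart from an effect of MDM4. Control replicate 3 differed from control replicates 1 and 2 by more (-1.10) than MDM4 replicate 3 did from MDM4 replicates 1 and 2 (0.27).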

How the results depend on the processing

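Voom over replicates 1 and 2, chosen after the data were seen, left aside, the 9 tested genes kept a negative log2 fold change in 160 of 160 alternative values, between -2.06 and -0.11, and 157 stayed on the same side of the threshold. The 3 others were *IFI35* over replicates 1 and 2, and *PLSCR1* there and without control replicate 3, and the cause was not tested. With a pseudocount of 1 the value of *IFI44* was -0.59 in place of -1.58. The number of DEGs among the 9 was 0 over all libraries, 2 over replicates 1 and 2 alone, 3 there by voom (with *IFI44* at a log2 fold change of -2.62), and between 0 and 1 with each library left out, 1 being *PLSCR1* without control replicate 3. Their median log2 fold change was between -0.77 and -0.36 with each library left out, and -0.89 over replicates 1 and 2 alone. With a pseudocount of 1 the median was -0.35. It was -0.35 as well with a filter at a mean of 2 FPKM, which *IFI44* and *IFI16* did not pass. With the replicate block, 0 of the 9 were DEGs and their adjusted p lay between 0.219 and 0.421 (limma, Benjamini-Hochberg); by voom with the block *IFI35* had an adjusted p of 0.0497 at a log2 fold change of -0.77. In limma, the block changed the DEG call of *MDM4* and of none of the 9 genes. The log2 fold change of *MDM4* passed at 4.33 with the replicate block, 4.44 by voom with the block and 4.78 over replicates 1 and 2 alone, and lay between 4.03 and 4.91 with each library left out, passing without control replicate 3 (4.20) or MDM4 replicate 3 (4.91). The number of the 9 that passed the product term of replicate 3 was 1, and 0 with no filter or without trend. With the last base of the ISRE letters left free (GAAANNGAA), 6 of 9 windows matched in place of 5. Depth limits *IFI44L*, *IFI44* and *IFI16*, which had at most 103 reads in any library.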
